A study of Homo sapiens with 6 samples.

Results

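The 10 genes described here encode enzymes of fatty acid synthesis and desaturation: ACLY, ACSS2, ACACA, ACACB, FASN, ELOVL6, SCD, SCD5, FADS1 and FADS2. They were taken by symbol from the count tables of 2 human esophageal adenocarcinoma cell lines, OE33 and Eso26, and are 10 of the 37493 gene identifiers in those tables. The groups were OE33 siPPARG, OE33 control, Eso26 siPPARG and Eso26 control, each with 1 RNA-seq library. The siPPARG cells were transfected with an siRNA against PPARG and the control cells with a non-silencing siRNA, in all 4 groups with Lipofectamine RNAiMAX. OE33 was grown in DMEM and Eso26 in RPMI-1640, both with fetal bovine serum, penicillin and streptomycin, so that line and medium cannot be told apart. The number of siRNA sequences and the time after transfection are not stated in the labels. The design text mentions triplicates, but each condition has 1 column of counts, so every interval within a line is a 95% counting interval and leaves out the spread between cultures.

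Cytosolic acetyl-CoA, the building block of fatty acids, is made from citrate by ACLY and from acetate by ACSS2. The acetyl-CoA carboxylases ACACA and ACACB turn it into malonyl-CoA, from which FASN builds palmitate. ELOVL6 lengthens palmitate to stearate, and the stearoyl-CoA desaturases SCD and SCD5 place a double bond in these saturated chains. FADS1 and FADS2 introduce further double bonds into polyunsaturated fatty acids. Many of these genes are targets of the transcription factor encoded by SREBF1, and PPARG is a nuclear receptor best known for its role in fat cells; the title of the study links both fatty acid synthesis and PPARG to esophageal adenocarcinoma.

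Per RefSeq on GRCh38.p14, ACACA, ACLY and FASN lie on chromosome 17, SCD5 and ELOVL6 on chromosome 4, FADS1 and FADS2 on chromosome 11, SCD on chromosome 10, ACACB on chromosome 12 and ACSS2 on chromosome 20. FADS1 (chr11:61799627-61817003, minus strand) and FADS2 (chr11:61816203-61867354, plus strand) overlap at their starts by 801 bases. Whether the counting used strand is not stated, so reads from that stretch cannot be assigned to FADS1 or FADS2. The promoter windows below, 250 bases before to 50 bases after the start, are shown because SCD and SCD5 were related desaturases that were high in different lines, and because FADS1 and FADS2 had the largest differences between the lines. They are written 5′ to 3′ on the strand of the gene, from RefSeq on GRCh38.p14: SCD from chr10:100346983-100347282 (plus strand), SCD5 from chr4:82798747-82799046 (minus strand), FADS1 from chr11:61816954-61817253 (minus strand) and FADS2 from chr11:61816154-61816453 (plus strand). Capitals mark the CCAAT box, a common promoter element, or its reverse complement ATTGG.
SCD: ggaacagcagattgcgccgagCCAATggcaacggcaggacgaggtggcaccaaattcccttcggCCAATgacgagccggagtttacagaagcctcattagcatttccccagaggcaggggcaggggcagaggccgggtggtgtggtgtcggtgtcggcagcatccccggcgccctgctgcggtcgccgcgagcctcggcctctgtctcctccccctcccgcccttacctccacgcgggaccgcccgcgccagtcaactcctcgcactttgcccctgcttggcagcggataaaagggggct
SCD5: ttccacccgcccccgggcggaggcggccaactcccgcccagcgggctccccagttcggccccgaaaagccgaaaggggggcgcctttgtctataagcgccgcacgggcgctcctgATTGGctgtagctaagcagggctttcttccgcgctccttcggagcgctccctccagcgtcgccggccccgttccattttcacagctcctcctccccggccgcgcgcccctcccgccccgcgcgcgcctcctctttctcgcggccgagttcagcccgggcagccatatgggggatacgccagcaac
FADS1: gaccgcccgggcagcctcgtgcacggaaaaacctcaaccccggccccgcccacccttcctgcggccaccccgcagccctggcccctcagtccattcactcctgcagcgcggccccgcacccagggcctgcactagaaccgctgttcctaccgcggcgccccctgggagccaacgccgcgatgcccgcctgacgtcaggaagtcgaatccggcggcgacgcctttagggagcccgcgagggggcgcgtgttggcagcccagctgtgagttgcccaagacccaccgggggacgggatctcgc
FADS2: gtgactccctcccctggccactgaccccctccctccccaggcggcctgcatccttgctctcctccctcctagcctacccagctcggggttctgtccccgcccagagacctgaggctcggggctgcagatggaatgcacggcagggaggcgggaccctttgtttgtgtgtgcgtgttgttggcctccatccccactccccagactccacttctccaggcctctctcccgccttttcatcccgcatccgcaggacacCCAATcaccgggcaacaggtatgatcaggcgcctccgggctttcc

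The promoter table held 15 windows for 9 of the genes, and FASN was not in it, so the counts do not cover FASN. FADS2 had another window, not shown, at the gene start given above (chr11:61815953-61816252), and it held none of the letters searched. The FADS2 window shown has a later start, and its CCAAT box began at base 6 after that start, not before it. CCAAT on either strand stood in 9 of the 15 windows, belonging to ACACA, ACACB, ACLY, ACSS2, FADS2, SCD and SCD5, and in 34.6% of the 35116 windows of all genes. The 2 ACLY windows (chr17:41918902-41919201 and chr17:41918973-41919272) overlap and hold the same 2 CCAAT boxes, which are thus counted in both windows. SCD had 2 CCAAT boxes, both on its own strand, SCD5 had 1 on the other strand, and the FADS1 window had none. The core of the sterol regulatory element, TCACCCCAC, stood in 0 of the 15 windows and in 0.43% of all windows, and the looser TCACNCCAC, which includes it, stood in 0 and in 1.13%. The E-box CACGTG stood in 0 of the 15 windows and in 7.26% of all. The nuclear receptor hexamer AGGTCA stood in the windows of ACACA and ELOVL6 and in 13.8% of all, while its direct repeat spaced by 1 base (DR1), the element that PPARG binds with RXR, stood in 0 of the 15 and in 0.0228% of all. Both strands were searched for each of these letters. The PPARG peak lists, whose build is hg19, were not set against these genes.

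PPARG itself checks the labels of the libraries. It had 313 counts in OE33 siPPARG, against 2156 counts in OE33 control, a ratio of 0.136 (interval 0.120 to 0.153). In Eso26 it had 201 counts in siPPARG, against 259 counts in control, a ratio of 0.843 with an interval of 0.698 to 1.02. PPARG was thus lower in OE33 siPPARG, while in the library labelled Eso26 siPPARG a reduction was not detectable at this depth, and directions in Eso26 refer to that label. Library totals lay between 16866996 and 23019840 counts. The epithelial markers KRT8, KRT18, KRT19, EPCAM and CDH1 were present in all 4 libraries, with summed levels of 8540 CPM (counts scaled to library size) in OE33 siPPARG, 8770 CPM in OE33 control, 4560 CPM in Eso26 siPPARG and 4780 CPM in Eso26 control. Single markers differed more than the sum in Eso26, where the ratio of siPPARG to control was 0.772 for KRT8, 0.790 for KRT18, 0.896 for CDH1 and 1.21 for KRT19, and their part in the Eso26 results was not tested. The fat cell markers ADIPOQ, LEP and FABP4 were at 0 in all 4 libraries, and the list of 5 fat cell markers summed to at most 0.421 CPM. The 5 fibroblast markers summed to between 3.68 and 8.15 CPM, the 4 squamous markers to between 0.511 and 3.28 CPM, and the 5 immune markers to at most 0.784 CPM in OE33 and 24.7 CPM in Eso26, where LYZ held nearly all of the sum. A list of 10 interferon-response genes, with IFIT1, MX1, OAS1, ISG15 and RSAD2 among them, summed to 4880 CPM in OE33 siPPARG, against 1720 CPM in OE33 control, and all 10 had a counting interval above 1, led by RSAD2 with a ratio of 6.86 (interval 6.23 to 7.57). They summed to 685 CPM in Eso26 siPPARG, against 723 CPM in Eso26 control. This difference stands beside every OE33 result below, and its part in them was not tested.

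Together the 10 fatty acid synthesis genes took 0.222% of all counts in OE33 siPPARG, against 0.277% in OE33 control. They took 0.148% in Eso26 siPPARG, against 0.123% in Eso26 control. The share was therefore smaller after siPPARG in OE33 and larger in Eso26, and higher in both OE33 libraries than in either Eso26 library. In bulk RNA, fewer cells that express a gene and less RNA per cell cannot be told apart. SCD alone gave 46.6% of these counts in OE33 siPPARG, 47.9% in OE33 control, 40.7% in Eso26 siPPARG and 36.1% in Eso26 control.

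**Figure D1:**
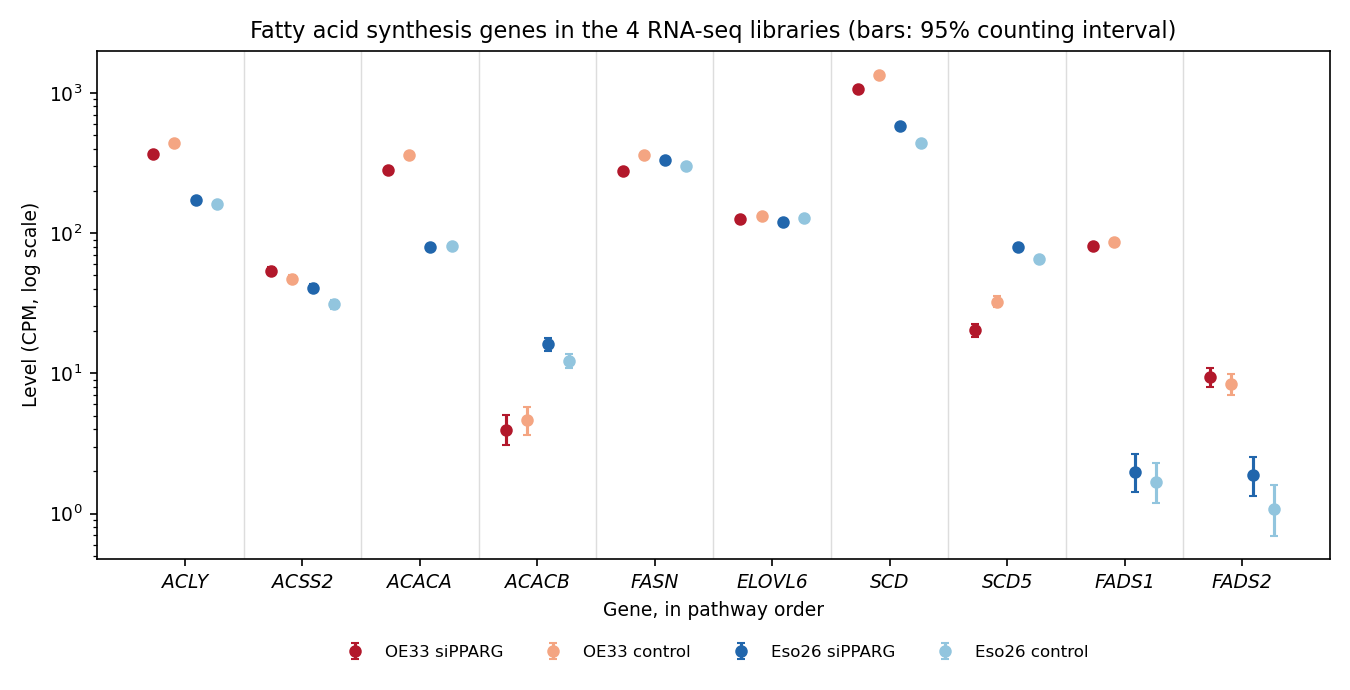
Levels of the 10 genes in the 4 libraries, in CPM on a log axis, with TMM factors of all 4 libraries; points are single libraries and bars their exact 95% Poisson intervals. Levels can be compared between libraries within a gene, not between genes, because transcript length was not taken into account; FADS1 lies near 2 CPM in both Eso26 libraries and above 80 CPM in both OE33 libraries.

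In OE33, siPPARG came with lower levels of ACLY, ACACA, FASN, SCD and SCD5. These 5 genes had counting intervals below 1, ACSS2 had an interval above 1, and those of ACACB, ELOVL6, FADS1 and FADS2 included 1. Without a scaling factor the interval of FADS1 lay just below 1 (0.861 to 0.999), which makes 6 genes. A counting interval below 1 was found for 25.8% of the 10527 genes that reached 5 CPM in either OE33 library, and one above 1 for 24.8%, so that an interval that leaves out 1 is common in these libraries. ACACB, with under 5 CPM in both OE33 libraries, was the gene of the 10 that did not reach that level. The median log2 fold of all 10 genes was -0.25, and that of the 9 members at 5 CPM or more was -0.27. For all genes at 5 CPM or more it was -0.008, and their middle part between the quartiles ran from -0.16 to 0.15.

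At the head of the pathway, ACLY had 6450 counts in OE33 siPPARG, against 7291 counts in OE33 control, and its ratio was 0.827 (interval 0.8 to 0.855). ACSS2, the enzyme that makes acetyl-CoA from acetate, had 948 counts in OE33 siPPARG, against 780 counts in OE33 control, and stood at 1.14 times the control (interval 1.03 to 1.25). The 2 sources of acetyl-CoA thus differed in direction. ACACA, the main carboxylase of fatty acid synthesis, had 4975 counts in OE33 siPPARG, against 5980 counts in OE33 control, a ratio of 0.778 (interval 0.749 to 0.808). ACACB, the carboxylase at the outer membrane of mitochondria, had 70 counts in OE33 siPPARG, against 77 counts in OE33 control, a ratio of 0.850 whose interval of 0.606 to 1.19 was too wide to show a difference of the size seen in ACACA. FASN had 4858 counts in OE33 siPPARG, against 5963 counts in OE33 control, and its log2 fold of -0.39 was lower than that of all but 6.89% of the genes at 5 CPM or more.

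Beyond palmitate the desaturases of saturated chains were lower, and the intervals of the other enzymes included 1. SCD had 18755 counts in OE33 siPPARG, against 22379 counts in OE33 control, and SCD5, a desaturase first described in brain, had 357 counts in OE33 siPPARG, against 539 counts in OE33 control. SCD stood at 0.783 times the control (interval 0.768 to 0.799). SCD5, at 0.619 (interval 0.540 to 0.709), was the furthest from 1 and, with a log2 fold of -0.69, the only gene of the 10 past 1.5-fold in OE33. Past 1.5-fold lay 2.38% of the genes at 5 CPM or more on the lower side and 3.26% on the higher side. ELOVL6 had 2238 counts in OE33 siPPARG, against 2191 counts in OE33 control, with a ratio of 0.955 (interval 0.900 to 1.01). FADS1 had 1426 counts in OE33 siPPARG, against 1428 counts in OE33 control, and at 0.934 (interval 0.867 to 1.01) was not set apart from its control by counting error. FADS2, with 166 counts in OE33 siPPARG, against 139 counts in OE33 control, had a ratio of 1.12 (interval 0.886 to 1.41).

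In Eso26, where PPARG was not detectably reduced, most of these genes stood a little above their control in the library with the siPPARG label. Counting intervals lay above 1 for 7 of the 10 genes (ACLY, ACSS2, ACACB, FASN, SCD, SCD5 and FADS2) and below 1 for none, although with DESeq2 size factors that of ELOVL6 lay below 1. Among the 10443 genes at 5 CPM or more in either Eso26 library, 23.6% had an interval above 1 and 29.6% one below 1. FADS1 and FADS2 were under 5 CPM in both Eso26 libraries. Of the 8 members at 5 CPM or more, 6 had an interval above 1 and 0 had one below 1. The median log2 fold was 0.26 for all 10 members and 0.22 for these 8, beside -0.007 for all genes at 5 CPM or more.

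ACSS2 had 871 counts in Eso26 siPPARG, against 722 counts in Eso26 control, a ratio of 1.31 (interval 1.19 to 1.45), and ACLY had 3703 counts in Eso26 siPPARG, against 3754 counts in Eso26 control, a ratio of 1.07 (interval 1.02 to 1.12) after scaling. Both sources of acetyl-CoA were thus on the higher side here. ACACA had 1696 counts in Eso26 siPPARG, against 1870 counts in Eso26 control, with a ratio of 0.986 (interval 0.922 to 1.05). ACACB, by contrast, had 345 counts in Eso26 siPPARG, against 285 counts in Eso26 control, and stood at 1.32 times the control (interval 1.12 to 1.54). The carboxylases did not move as a pair in these libraries. FASN had 7085 counts in Eso26 siPPARG, against 6974 counts in Eso26 control, a ratio of 1.10 (interval 1.07 to 1.14).

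SCD had 12413 counts in Eso26 siPPARG, against 10261 counts in Eso26 control, and its log2 fold of 0.39 was above that of 95.4% of the genes at 5 CPM or more. SCD5 had 1712 counts in Eso26 siPPARG, against 1510 counts in Eso26 control, a ratio of 1.23 (interval 1.15 to 1.32). SCD and SCD5 were thus higher in Eso26 siPPARG and lower in OE33 siPPARG, each relative to its own control. ELOVL6 had 2579 counts in Eso26 siPPARG, against 2952 counts in Eso26 control, a ratio of 0.95 (interval 0.900 to 1.0), close to its ratio in OE33. FADS1 had 42 counts in Eso26 siPPARG, against 39 counts in Eso26 control, and FADS2 had 40 counts in Eso26 siPPARG, against 25 counts in Eso26 control. The FADS2 ratio of 1.74 had an interval of 1.03 to 2.99 and was the only one of the 10 past 1.5-fold in Eso26. FADS2 was under 5 CPM in both Eso26 libraries, and 0 of the 8 members at 5 CPM or more were past 1.5-fold there. Of all genes at 5 CPM or more, 1.25% were past 1.5-fold on the higher side and 1.15% on the lower side. These shares leave out genes as low as FADS2. At 42 and 39 counts, the interval for FADS1 ran from 0.739 to 1.86, which included both 1 and a ratio of 1.5.

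**Figure D2:**
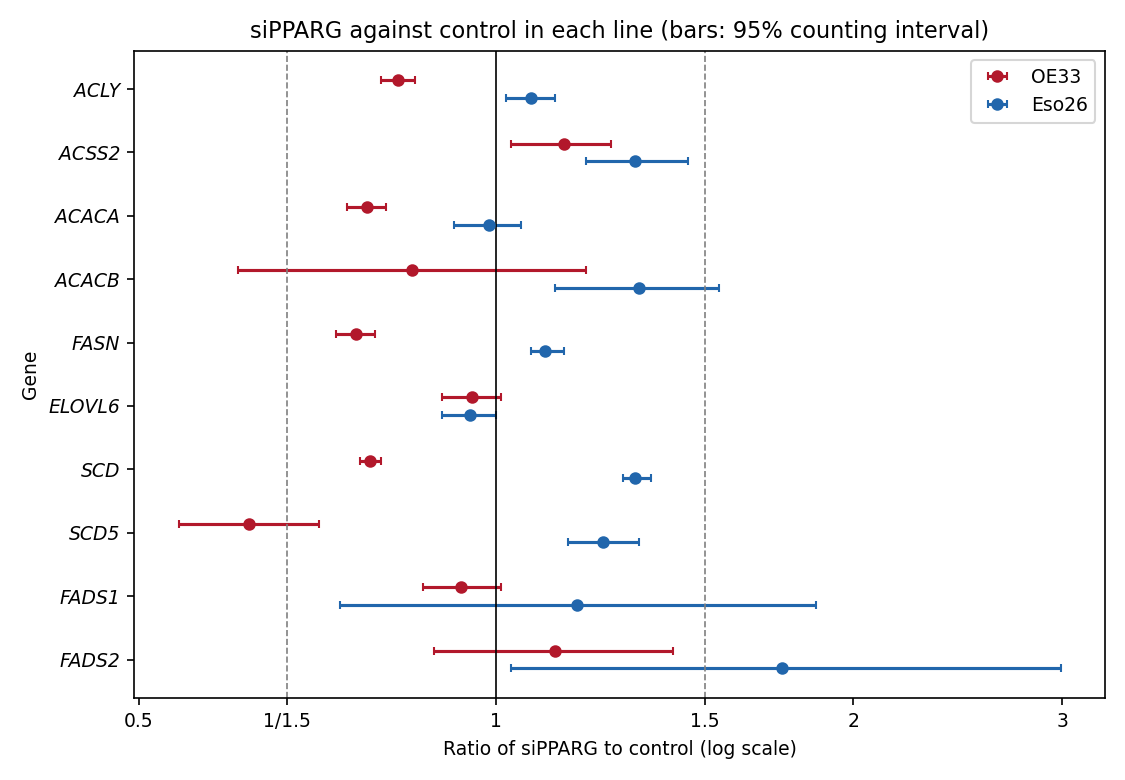
Ratio of siPPARG to control for each gene in OE33 (red) and Eso26 (blue), on a log axis, with exact conditional binomial 95% counting intervals; the dashed lines mark 1.5-fold. SCD lies at 0.783 in OE33 and at 1.31 in Eso26, while ELOVL6 lies at 0.955 and 0.95.

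Set side by side, 4 genes had counting intervals on opposite sides of 1: FASN, ACLY, SCD and SCD5 were lower in OE33 siPPARG and higher in Eso26 siPPARG. The same 4 genes did so with library totals, DESeq2 size factors or TMM factors of all 4 libraries in place of factors from each pair. The OE33 ratio was 0.502 times the Eso26 ratio for SCD5 (interval 0.432 to 0.584), 0.596 times for SCD (interval 0.577 to 0.616), 0.690 times for FASN (interval 0.656 to 0.725) and 0.771 times for ACLY (interval 0.729 to 0.816). These intervals cover counting error, and the difference between the lines was not tested because a model with it has no residual. Of the 9588 genes at 5 CPM or more in both comparisons, 572, or 5.97%, were lower in OE33 and higher in Eso26 by their counting intervals, and 796 were the other way round. The 4 genes were among the 7 members at that level in both comparisons. ACSS2 was higher in siPPARG than in control in both lines, and ELOVL6 had nearly the same ratio in each.

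**Figure D3:**
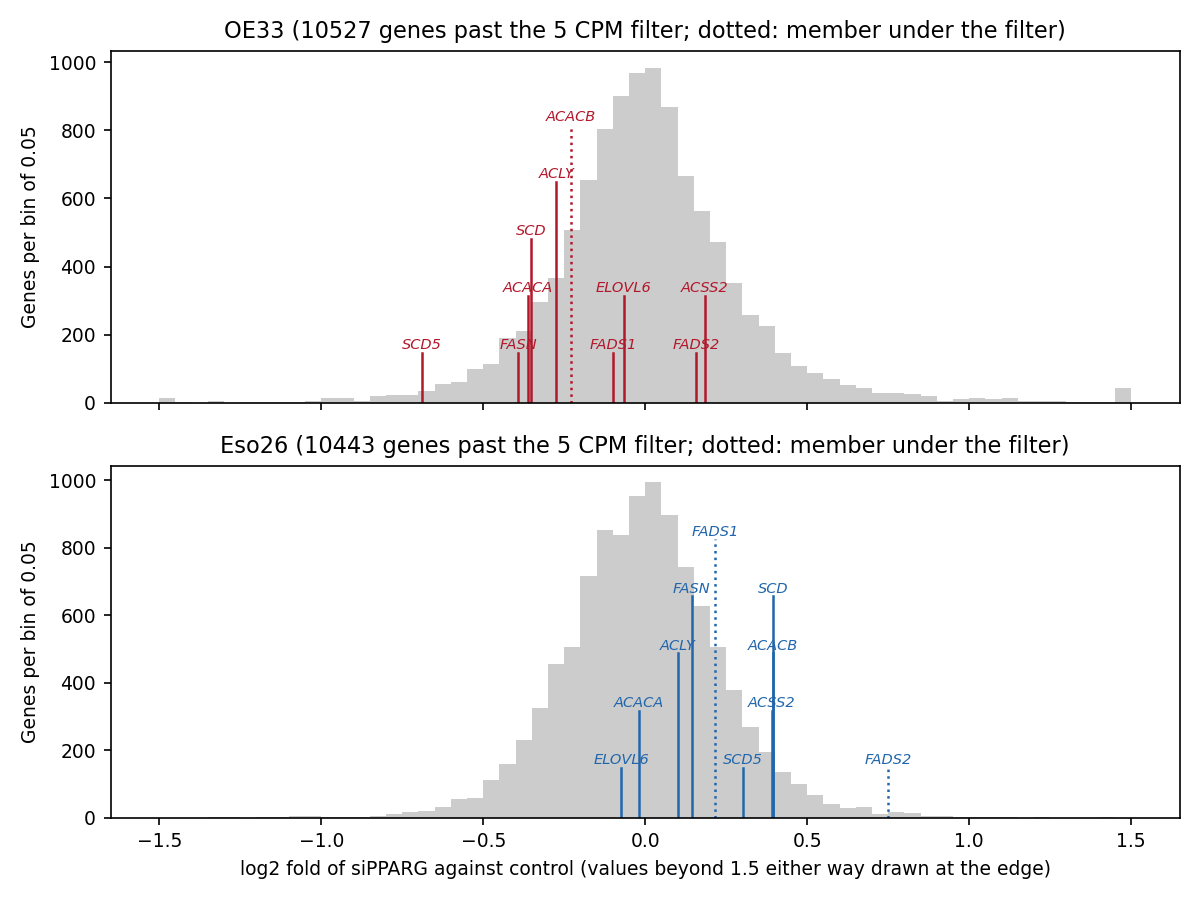
Distribution of the log2 fold of siPPARG against control over the genes at 5 CPM or more, for OE33 (top, 10527 genes) and Eso26 (bottom, 10443 genes); coloured lines mark the 10 genes and their heights only separate the names. Most members lie left of 0 in OE33 and right of 0 in Eso26, within the range of other genes.

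A fit of the 4 libraries with line and treatment, the only one with a residual, called none of the 10 genes for treatment. With edgeR's quasi-likelihood test and Benjamini-Hochberg adjustment, 0 of 11382 genes, or 0.0%, had an adjusted p under 0.05, and 523 had an unadjusted p under 0.05. DESeq2 called 13 genes, or 0.114%, and limma-voom 0, none of them among the 10. FADS2 had no adjusted p for treatment in DESeq2, so it could not be called there. The smallest p of the 10 in edgeR was that of ACSS2, which was higher in siPPARG in both lines, with a shared log2 fold of 0.29, an unadjusted p of 0.069 and an adjusted p of 0.942. For SCD the shared log2 fold was 0.03 in edgeR, with an adjusted p of 0.996. The residual of this fit, with 1 degree of freedom, comes from how far the treatment effects of OE33 and Eso26 differ, so opposite directions count as spread.

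The comparison of OE33 control with Eso26 control gives the level of the pathway in cells transfected with the non-silencing siRNA. Untransfected cells were not among the groups. Here the differences were larger than those after siPPARG for most of the genes, with FASN (log2 fold 0.24) and ELOVL6 (0.04) as exceptions. Of the 10 genes, 5 were higher in OE33 control past 2-fold (FADS1, FADS2, ACACA, SCD and ACLY) and 2 were lower (ACACB and SCD5). SCD5, at a log2 fold of -1.01, lay at the threshold and fell short of it with TMM factors of all 4 libraries, and in the siPPARG libraries SCD did not reach it, with a log2 fold of 0.87, so that either way 6 genes passed. Differences of this size were common: of 11205 genes at 5 CPM or more in either control, 21.1% were higher in OE33 past 2-fold and 16.6% lower. The median log2 fold of the 10 genes was 1.0, beside 0.012 for all genes. PPARG itself stood at 11.5 in OE33 control relative to Eso26 control (interval 10.1 to 13.2). In the siPPARG libraries its ratio of OE33 to Eso26 was 1.89 (interval 1.58 to 2.26). The part of PPARG in the differences between the lines was not tested.

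**Figure D4:**
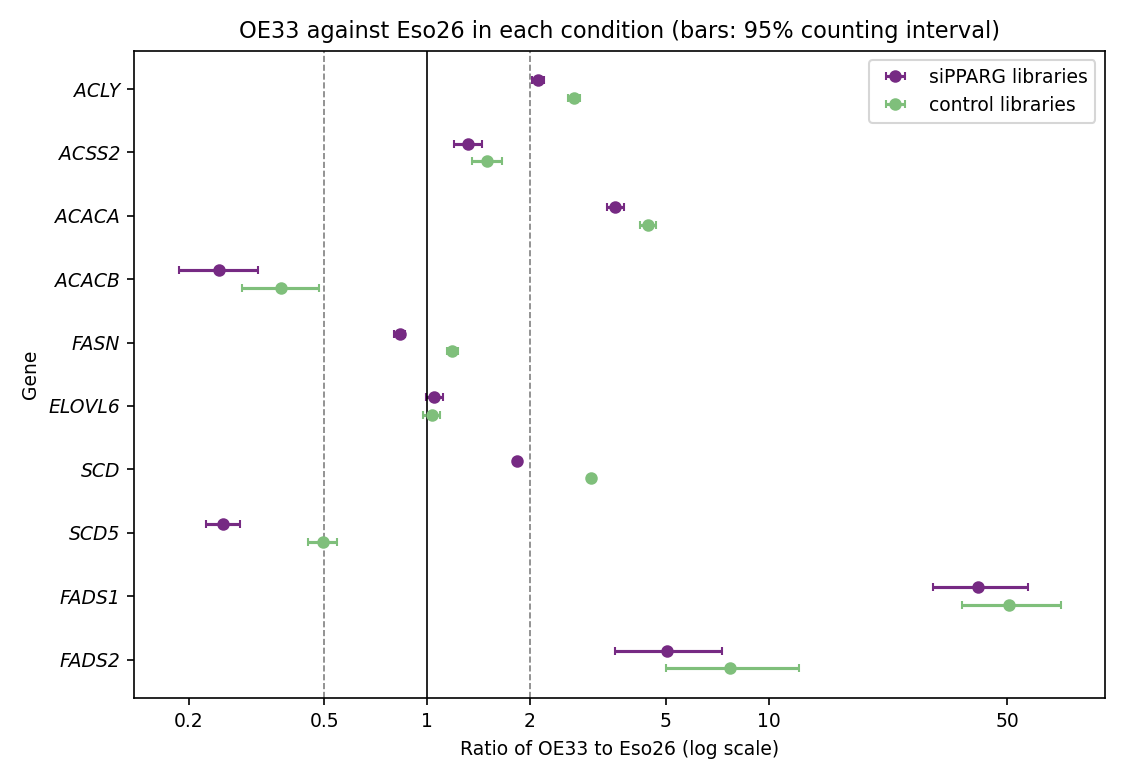
Ratio of OE33 to Eso26 for each gene in the siPPARG libraries (purple) and in the control libraries (green), on a log axis, with 95% counting intervals; the dashed lines mark 2-fold. FADS1 lies at 41.1 in the siPPARG libraries and 50.7 in the control libraries, and FASN is the gene whose ratios, 0.831 and 1.18, lie on opposite sides of 1.

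FADS1 showed the widest gap between the lines. Its level was 80.9 CPM in OE33 siPPARG (interval 76.8 to 85.3) and 86.1 CPM in OE33 control (interval 81.7 to 90.7), against 1.97 CPM in Eso26 siPPARG (interval 1.42 to 2.66) and 1.68 CPM in Eso26 control (interval 1.2 to 2.30). The OE33 and Eso26 libraries did not overlap, and within each line the intervals of siPPARG and control did. FADS2, its neighbour on chromosome 11, had 9.42 CPM in OE33 siPPARG (interval 8.04 to 11.0) and 8.38 CPM in OE33 control (interval 7.05 to 9.90), against 1.87 CPM in Eso26 siPPARG (interval 1.34 to 2.55) and 1.08 CPM in Eso26 control (interval 0.697 to 1.59). The order of the lines was the same as for FADS1. The ratio of OE33 control to Eso26 control was 50.7 for FADS1 (interval 36.9 to 71.6) and 7.70 for FADS2 (interval 5.0 to 12.3). In the same 4-library fit, edgeR's adjusted p for the line was 1.65e-05 for FADS1 and 0.000537 for FADS2.

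The carboxylases, and likewise SCD and SCD5, were high in different lines. ACACA had 282 CPM in OE33 siPPARG and 360.5 CPM in OE33 control, against 79.4 CPM in Eso26 siPPARG and 80.6 CPM in Eso26 control. ACACB had 3.97 CPM in OE33 siPPARG and 4.64 CPM in OE33 control, against 16.2 CPM in Eso26 siPPARG and 12.3 CPM in Eso26 control. ACACA was thus higher in both OE33 libraries and ACACB in both Eso26 libraries, with log2 folds of OE33 control against Eso26 control of 2.15 and -1.40. SCD had 1064 CPM in OE33 siPPARG and 1349 CPM in OE33 control, against 581 CPM in Eso26 siPPARG and 442 CPM in Eso26 control. SCD5 had 20.3 CPM in OE33 siPPARG and 32.5 CPM in OE33 control, against 80.2 CPM in Eso26 siPPARG and 65.1 CPM in Eso26 control. Again the paralogs were opposite, SCD with a ratio of OE33 control to Eso26 control of 3.02 (interval 2.95 to 3.09) and SCD5 with one of 0.494 (interval 0.447 to 0.546). The adjusted p for the line in edgeR was 0.000126 for ACACA, 0.00139 for ACACB, 0.00232 for SCD and 0.00307 for SCD5.

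Of the other 4 enzymes, ACLY and ACSS2 were higher in both OE33 libraries than in both Eso26 libraries. ACLY had 366 CPM in OE33 siPPARG and 439.6 CPM in OE33 control, against 173 CPM in Eso26 siPPARG and 162 CPM in Eso26 control. ACSS2 had 53.8 CPM in OE33 siPPARG and 47.0 CPM in OE33 control, against 40.8 CPM in Eso26 siPPARG and 31.1 CPM in Eso26 control. Their adjusted p-values for the line in edgeR were 6e-04 for ACLY and 0.0168 for ACSS2. For FASN the order was mixed: 276 CPM in OE33 siPPARG (interval 268 to 284) and 359.5 CPM in OE33 control (interval 350.5 to 369), against 332 CPM in Eso26 siPPARG (interval 324 to 340) and 300.5 CPM in Eso26 control (interval 293.5 to 308). OE33 control was the highest of the 4 libraries and OE33 siPPARG the lowest, and no neighbours in this order had overlapping counting intervals. For ELOVL6, with 127 CPM in OE33 siPPARG, 132 CPM in OE33 control, 121 CPM in Eso26 siPPARG and 127 CPM in Eso26 control, neighbouring libraries did overlap. The line was not called for FASN (adjusted p 0.983 in edgeR) or ELOVL6 (adjusted p 0.626 in edgeR). The fit called 8 of the 10 genes for the line, 6 higher and 2 lower in OE33, but it called 71.3% of all 11382 genes tested (37.2% higher and 34.1% lower), so 8 of 10 is near the background.

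Counts shared within the pairs of related genes give the same view without a scaling factor. SCD5 made up 1.87% of SCD and SCD5 counts in OE33 siPPARG (exact Clopper-Pearson interval 1.68 to 2.07) and 2.35% in OE33 control (interval 2.16 to 2.56), against 12.1% in Eso26 siPPARG (interval 11.6 to 12.7) and 12.8% in Eso26 control (interval 12.2 to 13.4). The desaturase mix differed far more between the lines than between siPPARG and control within a line. ACACB made up 1.39% of carboxylase counts in OE33 siPPARG (interval 1.08 to 1.75) and 1.27% in OE33 control (interval 1.0 to 1.59), against 16.9% in Eso26 siPPARG (interval 15.3 to 18.6) and 13.2% in Eso26 control (interval 11.8 to 14.7). FADS1 made up 89.6% of FADS1 and FADS2 counts in OE33 siPPARG (interval 88.0 to 91.0) and 91.1% in OE33 control (interval 89.6 to 92.5), against 51.2% in Eso26 siPPARG (interval 39.9 to 62.4) and 60.9% in Eso26 control (interval 47.9 to 72.9). These are shares of counts, not of molecules, because the genes differ in length, and how reads common to related genes were counted is not known.

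**Figure D5:**
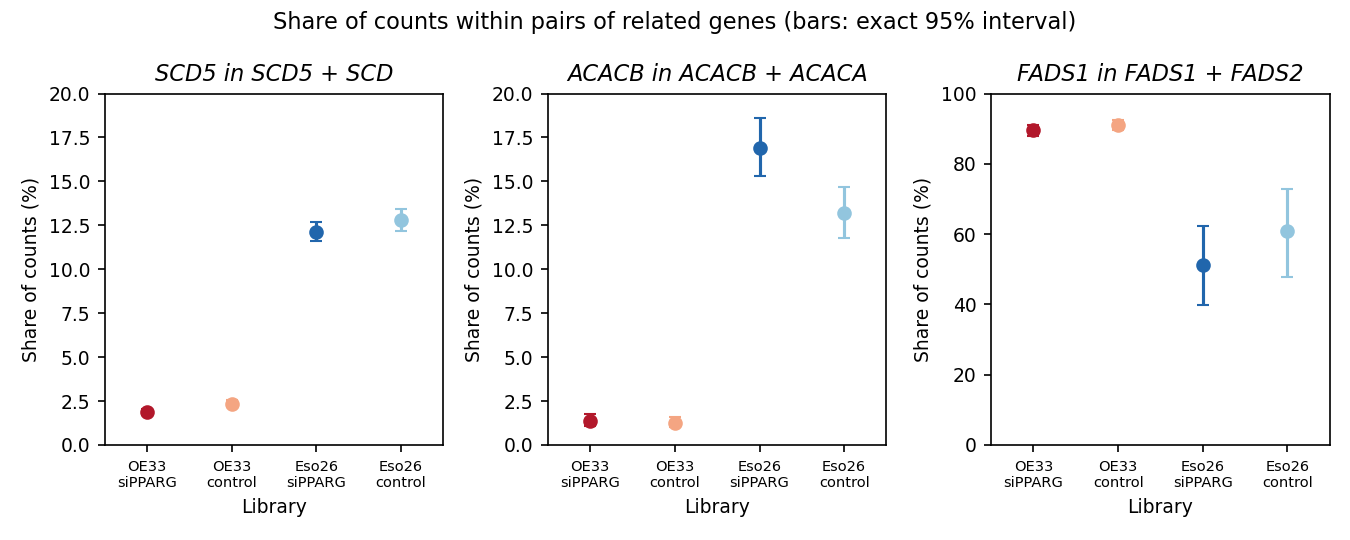
Share of counts taken by SCD5, ACACB and FADS1 within their pairs in each library, in percent, with exact 95% binomial intervals; the panel for FADS1 has another axis range. SCD5 and ACACB stay below 2.5% in the OE33 libraries and above 12% in the Eso26 libraries.

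Of 23 further genes of fatty acid synthesis and elongation, 17 reached 5 CPM in each line. In OE33, 4 had intervals above 1 and 4 below 1, with a median log2 fold of 0.0069. CBR4, a subunit of the mitochondrial ketoacyl reductase, stood at 0.693 times the control (interval 0.606 to 0.791), ACSS1, the mitochondrial acetyl-CoA synthetase, at 1.34 (interval 1.22 to 1.47), and FADS3, a relative of FADS1 and FADS2, at 1.29 (interval 1.09 to 1.52). The wider list thus had no common direction in OE33. In Eso26, 6 had intervals above 1 and 1 below 1, with a median of 0.079, among them FADS3 at 1.29 (interval 1.07 to 1.56) and AACS, which activates acetoacetate, at 1.2 (interval 1.12 to 1.28), while MLYCD, which breaks down malonyl-CoA, at 1.21 had an interval of 0.933 to 1.57. Between the controls, ACSS1 stood at 0.216 in OE33 control relative to Eso26 control (interval 0.2 to 0.233), with 766 counts in OE33 control, against 4914 counts in Eso26 control, the elongase gene ELOVL7 at 2.39 (interval 2.19 to 2.61) and HACD1, a dehydratase of elongation, at 1.98 (interval 1.65 to 2.38). ACSS1 was thus lower in OE33 control, whereas its cytosolic counterpart ACSS2 was higher there.

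NADPH, the reducing agent that FASN consumes, comes among others from ME1, PGD and IDH1. In OE33, 2 of the 6 measured genes of this list had intervals above 1 and 1 below 1, with a median log2 fold of -0.018. TKT, of the pentose phosphate pathway, stood at 1.19 (interval 1.15 to 1.23) and IDH1 at 0.850 (interval 0.805 to 0.896), while ME1 had a ratio of 1.0 (interval 0.935 to 1.08). In Eso26, 2 had intervals above 1 and 2 below 1, with a median of -0.027, and ME1 stood at 0.715 (interval 0.680 to 0.752) and IDH1 at 1.15 (interval 1.13 to 1.18). IDH1 thus stood on the same side of 1 as FASN in both lines. Between the controls, IDH1 stood at 0.247 (interval 0.237 to 0.257), PGD at 0.374 (interval 0.359 to 0.390) and ME1 at 0.548 (interval 0.516 to 0.582) in OE33 relative to Eso26.

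INSIG1 helps to hold the precursor of the factor encoded by SREBF1 in the endoplasmic reticulum, and is itself a target of that factor. Of the regulators of the pathway at 5 CPM or more, INSIG1 was the furthest from its control in OE33. It had 1700 counts in OE33 siPPARG, against 983 counts in OE33 control, a ratio of 1.62 (interval 1.49 to 1.75), while FASN and SCD were lower there. INSIG2 stood at 1.14 (interval 1.06 to 1.22), SCAP at 1.09 (interval 0.997 to 1.2) and SREBF1 at 0.925 (interval 0.863 to 0.992), and the median log2 fold of the 10 regulators at 5 CPM or more was 0.013. The regulators thus had no common direction in OE33: 2 of these 10 had intervals above 1 and 1, SREBF1, had one below 1. In Eso26, 8 of 11 regulators had intervals above 1 and 1 below 1, with a median of 0.12: SREBF1 had 2067 counts in Eso26 siPPARG, against 1571 counts in Eso26 control, a ratio of 1.43 (interval 1.34 to 1.53), MLXIPL, a glucose-responsive activator of lipogenic genes, stood at 1.41 (interval 1.06 to 1.89), SCAP at 1.27 (interval 1.17 to 1.39) and INSIG1 at 1.08 (interval 1.04 to 1.12). Between the controls, INSIG1 stood at 0.197 in OE33 relative to Eso26 (interval 0.184 to 0.211), INSIG2 at 3.67 (interval 3.31 to 4.06), MLXIP at 0.586 (interval 0.556 to 0.618) and SREBF1 at 1.42 (interval 1.33 to 1.53).

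AMPK, the kinase that inhibits the acetyl-CoA carboxylases by phosphorylation, had its catalytic subunit gene PRKAA1 lower in siPPARG in both lines, at 0.773 in OE33 (interval 0.729 to 0.820) and 0.751 in Eso26 (interval 0.708 to 0.797). The regulatory subunit gene PRKAB2 stood at 1.19 in OE33 (interval 1.03 to 1.37) and at 0.778 in Eso26 (interval 0.695 to 0.871). PRKAG2 stood at 0.786 in Eso26 (interval 0.703 to 0.878), and PRKAB1 at 0.901 in OE33 (interval 0.775 to 1.05). The median log2 fold of the AMPK list was -0.11 in OE33, with 1 of 6 genes above 1 and 1 below 1 by interval, and -0.014 in Eso26, with 2 of 7 above and 3 below. The other catalytic subunit gene, PRKAA2, had 1 count in OE33 siPPARG and 0 counts in OE33 control, against 697 counts in Eso26 siPPARG and 765 counts in Eso26 control. A count of 0 allows up to 3 counts, or 0.179 CPM, against 33.0 CPM in Eso26 control, so PRKAA2 was far lower in OE33 control. PRKAG1 stood at 1.82 (interval 1.64 to 2.02) and PRKAB1 at 0.569 (interval 0.502 to 0.645) in OE33 control relative to Eso26 control.

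Long-chain acyl-CoA synthetases, which activate finished fatty acids, were mainly a difference between the lines. ACSL5 stood at 7.12 (interval 6.81 to 7.45), ACSL1 at 5.70 (interval 5.07 to 6.43) ACSL4 at 2.22 (interval 2.06 to 2.40) and ACSL3, on the other side, at 0.608 (interval 0.583 to 0.634) in OE33 control relative to Eso26 control. After siPPARG, ACSL4 stood at 0.781 in OE33 (interval 0.728 to 0.837), while ACSL3, at 0.974 (interval 0.927 to 1.02), and ACSL5, at 0.977 (interval 0.953 to 1.0), lay close to their control. In Eso26, ACSL1 stood at 1.33 (interval 1.15 to 1.53), ACSL4 at 1.13 (interval 1.04 to 1.23) and ACSL3 at 0.948 (interval 0.917 to 0.981). ACSL4 was thus lower in OE33 siPPARG and higher in Eso26 siPPARG, as FASN and SCD were.

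Cholesterol synthesis shares regulators with fatty acid synthesis, and its 20 genes all reached 5 CPM. In OE33, 3 had intervals above 1 and 6 below 1, with a median log2 fold of -0.047. HMGCS1, an early enzyme of the mevalonate pathway, stood at 1.47 (interval 1.39 to 1.55) and FDFT1, which makes squalene, at 0.777 (interval 0.742 to 0.815). In Eso26, 11 had intervals above 1 and 4 below 1, with a median of 0.14, led by the sterol reductase gene TM7SF2 at 1.60 (interval 1.38 to 1.86), FDFT1 at 1.48 (interval 1.45 to 1.52) and MVD, a mevalonate pathway decarboxylase, at 1.38 (interval 1.24 to 1.54). Between the controls the cholesterol list and the fatty acid enzymes stood on different sides. The cholesterol list had a median log2 fold of -0.59 in OE33 control against Eso26 control, with 12 of 20 intervals below 1 and 6 above 1 (44.2% and 45.3% of all genes), beside 1.0 for the 10 fatty acid genes. IDI1 stood at 0.326 (interval 0.306 to 0.347), MSMO1 at 0.351 (interval 0.334 to 0.368) and HMGCS1 at 0.429 (interval 0.408 to 0.451).

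Genes with profiles like that of FASN over the 4 libraries were sought among 6399 others at 20 CPM or more in every library, by the distance between log2 levels centred on their mean. The nearest were the DNA ligase gene LIG1 (distance 0.059), the DNA polymerase subunit gene POLD2 (0.060), DCTPP1, which hydrolyses dCTP (0.074), MKRN2 (0.082) and the topoisomerase gene TOP2A (0.086). LIG1 had 615 counts in OE33 siPPARG and 729 counts in OE33 control, and 883 counts in Eso26 siPPARG and 901 counts in Eso26 control. For SCD the nearest were THEM6 (0.131), the replication factor gene RFC4 (0.132), the riboflavin transporter gene SLC52A3 (0.136), SEMA4B (0.17) and the cystatin gene CST3 (0.174). THEM6 had 1329 counts in OE33 siPPARG and 1573 counts in OE33 control, and 926 counts in Eso26 siPPARG and 806 counts in Eso26 control. No other member of the 10 was among the nearest genes of FASN or SCD, and the likeness rests on 4 libraries. FADS1, FADS2 and ACACB could not be listed, because they were not at 20 CPM or more in every library.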

How the data were processed

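Per the file headers and their values, the deposited tables hold unnormalised whole-number counts for each gene; each column is taken as 1 library. The submitters' processing notes name Trim Galore, STAR, Bowtie, Picard, MACS2 and hg19, without roles. No source used here names the counting tool, its strand setting or how it dealt with reads of several places. The identifier of ACACA in the tables is a newer Ensembl one, so the annotation is not settled. Each table has 37533 rows; 40 repeat an identifier and were added to the first row that has it, which leaves 37493, of which 37402 matched the symbol table. The genes PGLS and NR1H2 of the lists used here are not analysed. Groups follow the sample titles. The number of columns left out was 0.

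Ratios of siPPARG to control, and of OE33 to Eso26, use TMM factors of the 2 libraries compared (edgeR 4.0.16, R 4.3.3), with exact conditional binomial 95% intervals (SciPy 1.17.1); log2 folds use a prior count of 2. Levels in CPM use TMM factors of all 4 libraries, so their quotients differ slightly from the ratios, with exact Poisson intervals. The interval of a ratio of 2 ratios uses the normal approximation for 4 Poisson counts. Genes at 5 CPM or more in either library of a comparison form its background; called means past 1.5-fold, or 2-fold between the controls. The 4-library fit was edgeR's quasi-likelihood test with line and treatment as terms, Benjamini-Hochberg adjusted over all genes at 5 CPM or more in any library; DESeq2 1.42.0 and limma 3.58.1 were alternatives. The edgeR fit was tried on simulated counts with a set dispersion of 0.02 and the same fold in both lines. For treatment it recovered 93 of 100 changes of 2-fold and 100 of 100 of 4-fold, and called 9 unchanged genes, with 10924 genes tested. Effects that differ between the lines, the residual of the real fit, were not simulated, so its power in these data is not known. Named list genes are up to 3 with the largest absolute log2 fold per list and comparison, plus SREBF1, INSIG1 and ME1; members of the comparison are all named, as is PPARG. Some genes that this rule picks are not reported here. Members and lists were chosen with earlier results of these data known. Sequences are from RefSeq on GRCh38.p14. Replicates from separate cultures are not given, so p-values measure only the spread between these 4 libraries. Protein sequences were not used here. The 2 PPARG peak lists were not used here.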

Additional observations from a re-analysis of the deposited data

Results flagged for a closer look

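In 4 genes the siPPARG library stood below its control in OE33 and above it in Eso26, with counting intervals on opposite sides of 1. These 4 were among the 7 members at 5 CPM or more in both comparisons. Of the 9588 genes at that level in both, 5.97% had this pattern and 796 genes had the reverse. The ratio of siPPARG to control in OE33, divided by that in Eso26, was 0.690 for FASN, 0.771 for ACLY, 0.596 for SCD and 0.502 for SCD5. Each direction rests on 1 library per condition, the difference between the lines was not tested, and PPARG was not detectably reduced in Eso26. The interferon-response genes were higher in OE33 siPPARG, with a median log2 fold of 1.70 there and 0.035 in Eso26, and their part in these differences was not tested.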

How the results depend on the processing

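Of 370 recomputed values of single genes among the 10, 362 stayed within their counting interval or, in the 4-library fit, on their side of the threshold. The sign differed in 4 of the 370: FASN below, and 3 values near 0 that were not called, ACACA in Eso26 without a scaling factor (0.02, against -0.02), ELOVL6 between the lines without one, and FADS1 for treatment in DESeq2. Outside the interval were SCD in Eso26 without a scaling factor (log2 fold 0.44) and 7 values between the lines when the siPPARG libraries replaced the controls, an alternative chosen after seeing the data: FASN turned to -0.27, and ACACA (1.83), ACACB (-2.00), ACLY (1.08), ACSS2 (0.40), SCD (0.87) and SCD5 (-1.98) kept their direction. The number of members with an interval below 1 was 0 in Eso26, and 1 with DESeq2 size factors (ELOVL6); in OE33 it was 5, and 6 without a scaling factor (FADS1). Between the controls 7 members passed 2-fold, and 6 with TMM factors of all 4 libraries (without SCD5) or in the siPPARG libraries (without SCD). The counts past 1.5-fold over all genes moved with the filter: in OE33 343 higher and 251 lower, 594 and 448 at 1 CPM, and 1557 and 2135 with no filter; in Eso26 131 higher and 120 lower, 412 and 221 at 1 CPM, 72 higher at 10 CPM, and 2342 and 1150 with no filter. Between the controls, no filter gave 3783 higher and 3616 lower past 2-fold, against 2364 and 1862. The shared treatment fit called 13 genes with DESeq2, where FADS2 had no adjusted p, and 64 with no filter, 0 of them among the 10. Fewer genes are tested under stricter filters; otherwise the cause was not tested. No paired analysis was possible because the labels give no replicate numbers, beyond the 4-library fit, which pairs siPPARG with control by line. With 1 library in each group, none could be left out of the fit. Depth limits FADS1 and FADS2 in Eso26 and ACACB in OE33.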
